A study of Mus musculus with 18 samples.

Results

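The fatty acid oxidation and ketogenesis genes described here are Cpt1a, Cpt2, Acadm, Acadl, Ehhadh, Acaa1a, Pdk4 and Fgf21, 8 of the 21938 protein-coding genes of GENCODE vM21 on nuclear chromosomes. They were chosen by name, and for each one the gene body and 50 kb on both sides (its window, 102 to 163 kb long) were intersected with 6 lists of called regions. Chromatin came from livers of male mice, and the paper names the strain, C57BL/6, for the young and old groups only. Lamin B1 and the histone mark H3K9me3 were profiled at 3 months (young) and 21 months (old), with 2 replicates per age, and the transcription factor Foxa2 at 12 weeks in Zmpste24 KO mice and wild-type (WT) littermates, with 3 replicates per genotype. Zmpste24 KO animals lack, in every cell type, the protease that matures prelamin A. Replicates of the lamin B1 and Foxa2 samples were merged before regions were called, and each list holds positions without signal, score or depth. No spread between animals can therefore be given for any value below, no p-value was computed, and a region that is not called may still be bound at a lower level. The H3K9me2 samples were not analysed here.

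Fatty acids are burned in the liver by a relay of enzymes. Carnitine palmitoyltransferases carry acyl chains into mitochondria, acyl-CoA dehydrogenases start each round of beta-oxidation, and peroxisomes shorten chains that mitochondria handle poorly. In fasting the acetyl-CoA that results is turned into ketone bodies, and PPARα, a nuclear receptor that binds DNA with RXR, is the best known activator of the genes involved. Lamin B1 is a filament protein of the nuclear lamina, and chromatin at the lamina is mostly silent and often carries H3K9me3. Foxa2 is a forkhead factor of hepatocytes that can bind compacted chromatin.

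Sequence under Foxa2 sites of these genes is shown first, so that the sites called in one genotype can be read beside those called in both. The stretches were picked because a whole-site search found a match in them, and that search was added after a search of the central 300 bases of each site had found few. Each stretch is 150 bases of the plus strand of the reference assembly GRCm38.p6, with coordinates counted from 1. Capitals mark a forkhead core, TGTTTAC or TGTTTGC on either strand, or a match to the DR-1 element. DR-1, the element of PPAR with RXR, was searched as 2 copies of AGGTCA in the same direction with 1 base between them and up to 2 mismatches. The first 3 stretches surround matches in sites called in WT livers without an overlapping KO site, in intron sequence of Acaa1a (chr9:119342892-119343041), upstream of the start of Pdk4 (chr6:5496565-5496714) and in intron sequence of Acadm (chr3:153943129-153943278). The Acadm stretch is centred on its match and runs past the end of the site, which is at 153943248.
Acaa1a intron, WT site: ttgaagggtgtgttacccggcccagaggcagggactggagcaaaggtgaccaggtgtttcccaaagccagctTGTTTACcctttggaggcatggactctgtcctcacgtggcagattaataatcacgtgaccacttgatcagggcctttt
Pdk4 upstream, WT site: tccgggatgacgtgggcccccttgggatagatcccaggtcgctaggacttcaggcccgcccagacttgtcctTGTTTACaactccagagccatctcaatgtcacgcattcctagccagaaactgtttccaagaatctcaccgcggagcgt
Acadm intron, WT site: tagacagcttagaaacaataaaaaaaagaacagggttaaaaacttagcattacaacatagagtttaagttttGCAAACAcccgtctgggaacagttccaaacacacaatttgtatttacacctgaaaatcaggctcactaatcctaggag

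The next stretch lies in an intron of Ehhadh (chr16:21782953-21783102), where sites of both genotypes overlap. The one after it lies upstream of Cpt1a (chr19:3319949-3320098). There the KO site is wider than the WT site it overlaps and holds a forkhead core that lies outside the WT site.
Ehhadh intron, shared site: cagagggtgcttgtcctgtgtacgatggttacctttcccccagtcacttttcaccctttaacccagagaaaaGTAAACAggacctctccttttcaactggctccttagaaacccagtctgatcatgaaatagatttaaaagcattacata
Cpt1a upstream, KO site: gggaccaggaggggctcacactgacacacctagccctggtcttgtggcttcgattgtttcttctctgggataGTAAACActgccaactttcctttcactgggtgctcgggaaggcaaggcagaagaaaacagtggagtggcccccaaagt

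Matches to DR-1 are shown for the KO site upstream of Pdk4 (chr6:5509799-5509948). The site holds 2 matches with 68 bases between them, each with 2 mismatches. It also holds TGTTTGC, at 5510346 to 5510352, outside the stretch shown. The KO site 38 kb upstream of Ehhadh, which overlaps no WT site, holds TGTTTGC at 2 places. The KO site of Acaa1a holds a DR-1 match with 1 mismatch. These further matches are not printed, so the stretches do not show how the words divide between genotypes.
Pdk4 upstream, KO site: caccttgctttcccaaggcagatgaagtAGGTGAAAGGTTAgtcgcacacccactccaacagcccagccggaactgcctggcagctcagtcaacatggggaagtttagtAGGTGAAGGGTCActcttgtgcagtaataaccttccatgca

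In young livers, a lamin B1 domain reached the window of 6 of the 8 genes, against 44.4% of all protein-coding genes, and in old livers also 6 of 8, against 68.5%. Cpt1a, Cpt2, Ehhadh, Acaa1a and Fgf21 had a domain at both ages, Pdk4 in young livers and not in old, Acadm in old livers and not in young, and Acadl at neither age. The start site itself lay inside a young domain for 5 genes (36% of all genes) and inside an old domain for 6 (62.3%). Acadm was the only one of the 8 with its start site inside an old and not a young domain (30.5% of all genes). None had its start site inside a young and not an old domain (4.26%). The median covered share of the window was 59.3% in young and 94% in old livers, and over all genes it was 0% and 98.5%. The old list is far longer in covered sequence, with 930 Mb against 466 Mb, and its part in any difference between the ages was not tested. The study gives fewer aligned lamin B1 reads for old than for young livers, and the part of depth was not tested either.

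**Figure D1:**
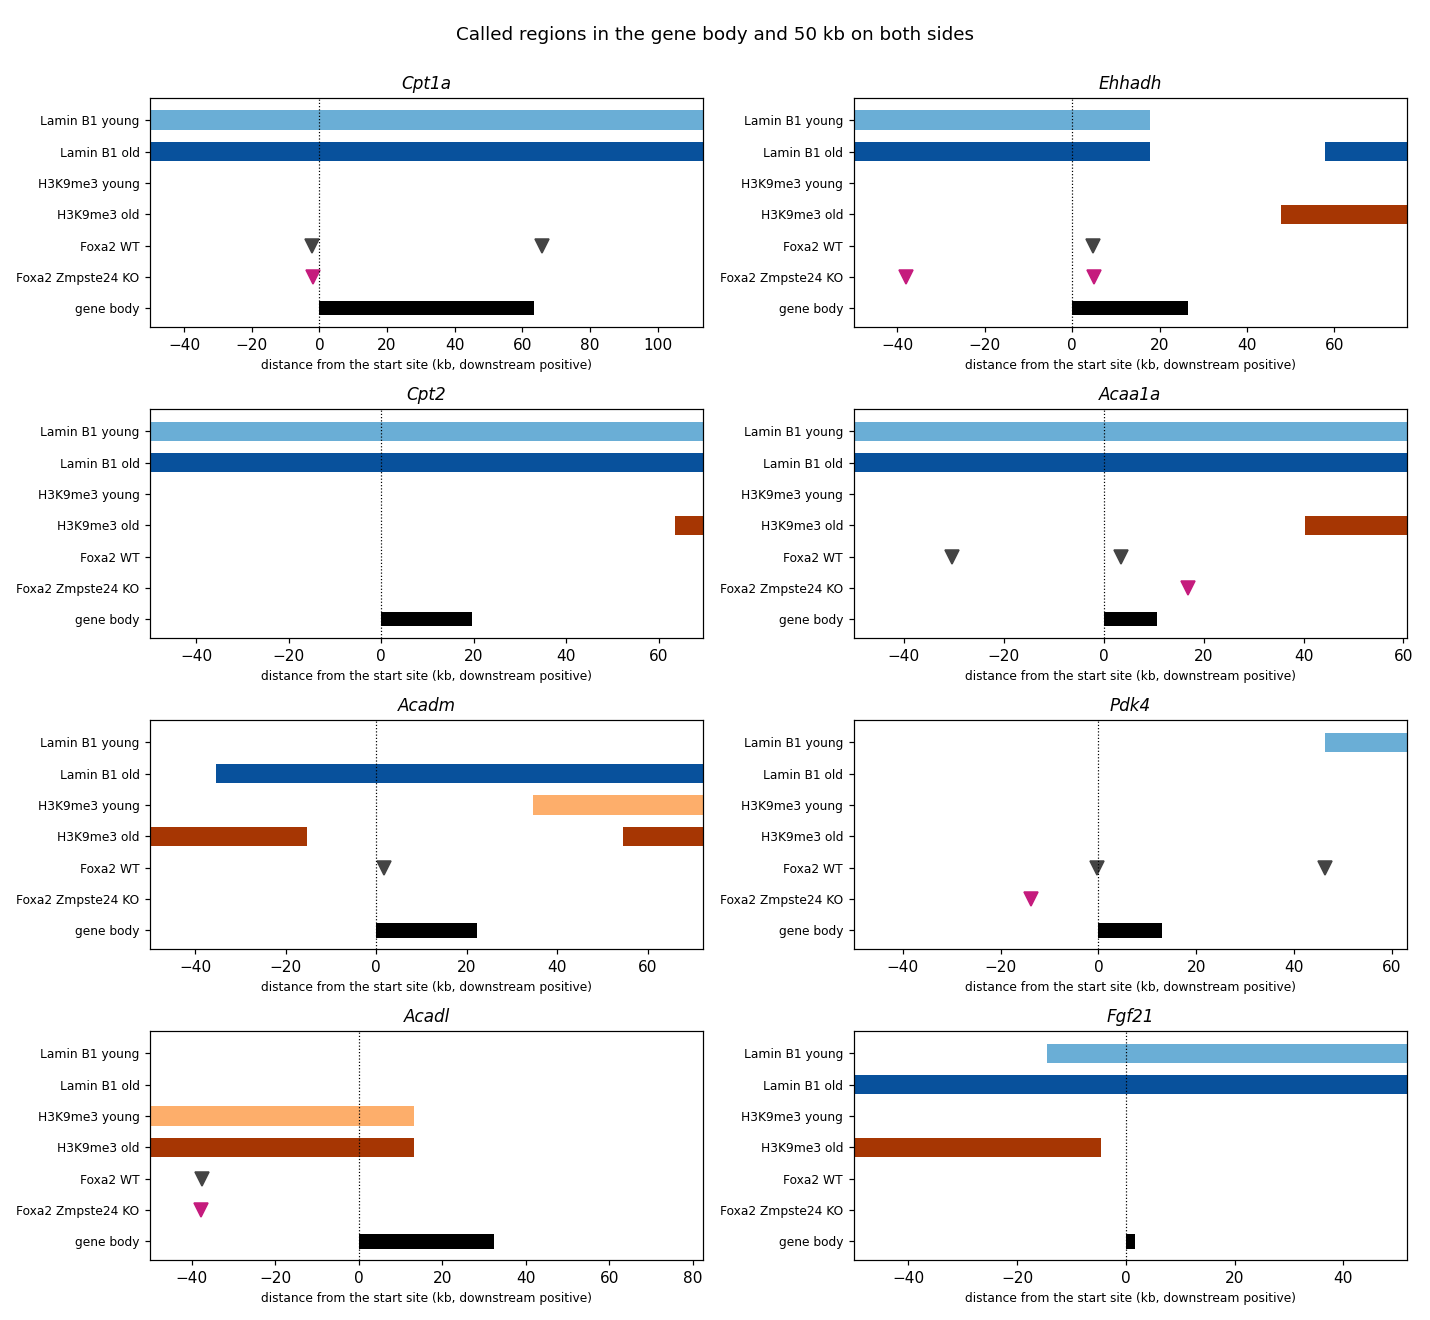
Map of the called regions in the window of each gene, with the distance from the start site in kb on the x axis (downstream positive) and 1 line per list. Bars are lamin B1 domains and H3K9me3 regions, cut at the window ends, triangles are midpoints of Foxa2 sites, and the black bar is the gene body. Lamin B1 spans the whole window of Cpt1a, Cpt2 and Acaa1a at both ages, and H3K9me3 crosses the start site of Acadl alone.

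Both carnitine palmitoyltransferase genes lay fully inside lamin B1 domains at both ages. Cpt1a (ENSMUSG00000024900.5, chromosome 19, 3322334 to 3385733, plus strand), whose product makes acylcarnitines at the outer mitochondrial membrane and sets the pace of oxidation, sat in a domain from 3260001 to 4010000 in young livers. The old domain had the same start and end, so the call was identical over 750 kb and 21 coding start sites. Cpt2 (ENSMUSG00000028607.16, chromosome 4, 107903981 to 107923610, minus strand), whose product reverses that step inside the mitochondrion, sat in a young domain of 350 kb from 107840001 to 108190000. Its old domain was 2740 kb long, from 105700001 to 108440000, and took in 39 coding start sites against 7 in young livers. For Cpt2 the window was covered to 100% at both ages, and the calls differed in how far the domain ran beyond it.

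Acadm and Acadl, the acyl-CoA dehydrogenase genes among the 8, did not follow that pattern. This does not describe the enzyme class. The window of Acads was covered to 100% at both ages, and that of Acad11 to 0% in young and 100% in old livers. Acadm (ENSMUSG00000062908.12, chromosome 3, 153922357 to 153944632, minus strand) encodes the medium-chain enzyme. In young livers no lamin B1 domain was called in its window, and the nearest one lay 1310 kb from the start site. In old livers a domain of 1400 kb, from 152580001 to 153980000, covered 88% of the window and the whole gene body. Acadl (ENSMUSG00000026003.5, chromosome 1, 66830839 to 66863277, minus strand), which encodes the long-chain enzyme, had no domain in its window at either age. The nearest domain lay 1450 kb away in young and 1670 kb away in old livers, so Acadl was the one gene of the 8 far from any called domain at both ages.

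Of the peroxisomal genes, Ehhadh (ENSMUSG00000022853.7, chromosome 16, 21761287 to 21787807, minus strand) encodes the bifunctional hydratase and dehydrogenase. The call from 21770001 to 22210000 was the same in young and old livers and covered its start site and 67.1% of its gene body. In old livers a further domain, from 21190001 to 21730000, reached the far end of the window, so that 68.4% of the window was covered against 53.6% in young livers. Acaa1a (ENSMUSG00000036138.16, chromosome 9, 119339676 to 119350299, plus strand) encodes the thiolase that ends each peroxisomal round. Its young domain was 260 kb long, from 119240001 to 119500000, and its old domain 4590 kb, from 118150001 to 122740000. The window of Acaa1a was covered to 100% at both ages, while the number of coding start sites in the domain was 7 in young and 56 in old livers.

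The genes that steer the pathway differed from each other. Pdk4 (ENSMUSG00000019577.6, chromosome 6, 5483351 to 5496309, minus strand), whose kinase turns off pyruvate dehydrogenase so that fat is burned in place of glucose, was outside lamin B1 domains at its start site at both ages. A young domain from 4800001 to 5450000 covered 14.7% of its window and ended 46.3 kb downstream of the start. In old livers the nearest domain was 296 kb away, which made Pdk4 the only gene of the 8 with a lower covered share in old livers (9.57% of all genes). Fgf21 (ENSMUSG00000030827.5, chromosome 7, 45613886 to 45615490, minus strand) encodes a hormone that the fasting liver secretes. Its young domain of 370 kb ended 14.5 kb upstream of the start and covered 65.1% of the window. The old domain of 2970 kb, from 44200001 to 47170000, covered 100%. With Acadm and Ehhadh, Fgf21 was thus among 3 genes with a higher covered share in old livers (44.2% of all genes).

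**Figure D2:**
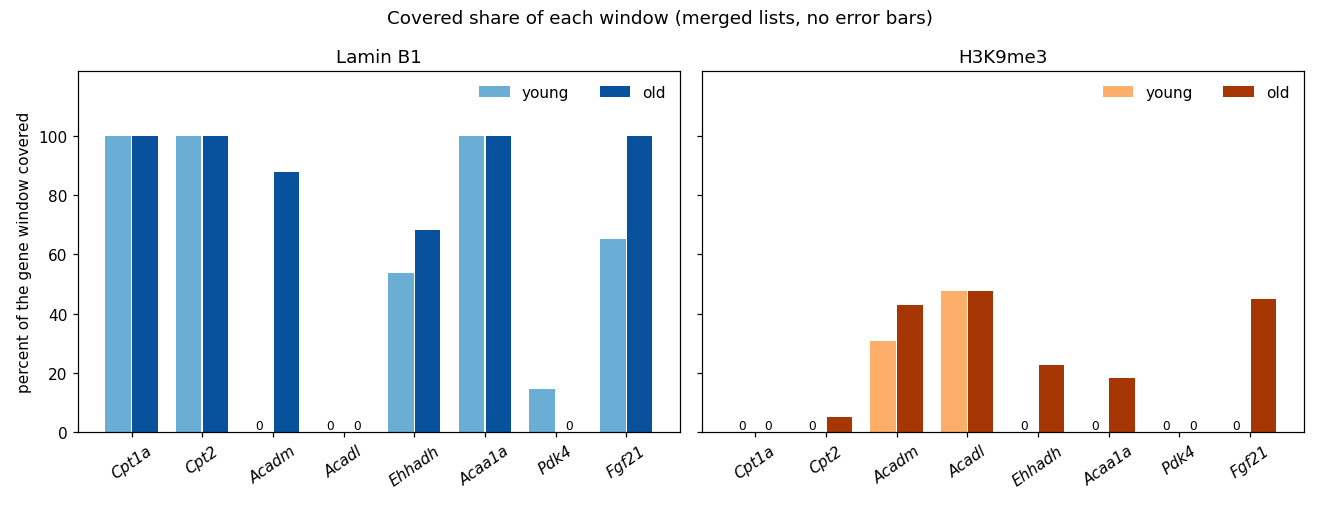
Percent of each gene window covered by lamin B1 domains (left) and H3K9me3 regions (right), with light bars for young and dark bars for old livers. Lamin B1 cover differs most at Acadm (0% and 88%), and H3K9me3 is called in 2 windows in young and in 6 windows in old livers.

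H3K9me3 was not called at the start sites of 7 of the 8 genes at both ages. Acadl was the exception, with a region from 66850001 to 66960000 called in young and again in old livers. This region of 110 kb covered its start site, 40.9% of its gene body and 47.8% of its window. A start site inside H3K9me3 was called for 12.9% of all genes in young and 24.4% in old livers, so 1 of 8 is near the background in young livers. In no case did a start site lie inside at one age alone, whereas 17.3% of all genes had this in old and not young, and 5.87% in young and not old livers. Acadl was also the gene without lamin B1, so in its window the mark and the lamina protein were not called together.

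Around the genes the ages differed more. The lists behind these values hold 2784 young and 2496 old H3K9me3 regions. The study counts more regions than that at either age, so a window without a region here may hold one in the full set, and the contrast of the ages describes these lists alone. Its pooled H3K9me3 libraries also held more aligned reads in old than in young livers. The part of depth in this contrast was not tested. A young H3K9me3 region lay in the window of 2 genes, Acadm and Acadl (25.6% of all genes), and an old region in the window of 6 (41.6%). The covered share was higher in old livers for 5 genes, Cpt2, Acadm, Ehhadh, Acaa1a and Fgf21 (33% of all genes), and lower for none (13.1%). Values in old livers were 5.03% for Cpt2, 42.8% for Acadm, 22.7% for Ehhadh, 18.3% for Acaa1a and 44.8% for Fgf21. In young livers these were 0% except for Acadm, at 30.8%. At Fgf21 the old region, from 45620001 to 45870000, began 4.51 kb upstream of the start. At Acadm the young region of 1320 kb, from 152590001 to 153910000, was called downstream of the gene. In old livers 2 shorter regions of 220 and 240 kb, from 153670001 to 153890000 and from 153960001 to 154200000, flanked it on both sides. Cpt1a and Pdk4 had no H3K9me3 region in the window at either age, and for Cpt1a the nearest lay 4010 kb away in young and 1560 kb in old livers. All of the higher shares came from the flanks, since none of these gene bodies was touched. In the gene body alone, or with 10 kb on both sides, the old count was 1 and 2 genes. The share of all genes was not computed for these shorter windows. In sum the young regions covered 576 Mb and the old regions 617 Mb. Which program called these regions is not given in the sources used here.

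Foxa2 sites were called in the window of 6 of the 8 genes in WT livers, against 30.5% of all genes, and of 5 in KO livers, against 38.5%. Cpt1a, Acadl, Ehhadh, Acaa1a and Pdk4 had a site in both genotypes (19.2% of all genes). Acadm had one in WT alone (11.3%), and no gene had one in KO alone (19.3%). Cpt2 and Fgf21 had none. The nearest site to the start of Cpt2 was 143 kb away in either genotype, and for Fgf21 1100 kb. Counted as sites, there were 9 in WT and 6 in KO livers, although the KO list is the longer one, with 8177 sites against 4960. Of these, 3 pairs overlapped, at Cpt1a, Acadl and Ehhadh, which is 3 of 9 WT sites (27.2% of the WT list) and 3 of 6 KO sites (16.7% of the KO list). At a reciprocal overlap of at least 50% the pair at Cpt1a no longer counted, which left 2. In WT livers 8 of 9 of these sites were below the median width of their list (941 bp), and in KO livers 4 of 6 (889 bp). By definition about 50% of a list lies below its median. Sites of at least median width remained at 1 gene in WT and 2 in KO livers, and the share of all genes at this width was not computed. The authors reduced the KO reads to the WT number before calling sites.

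**Figure D3:**
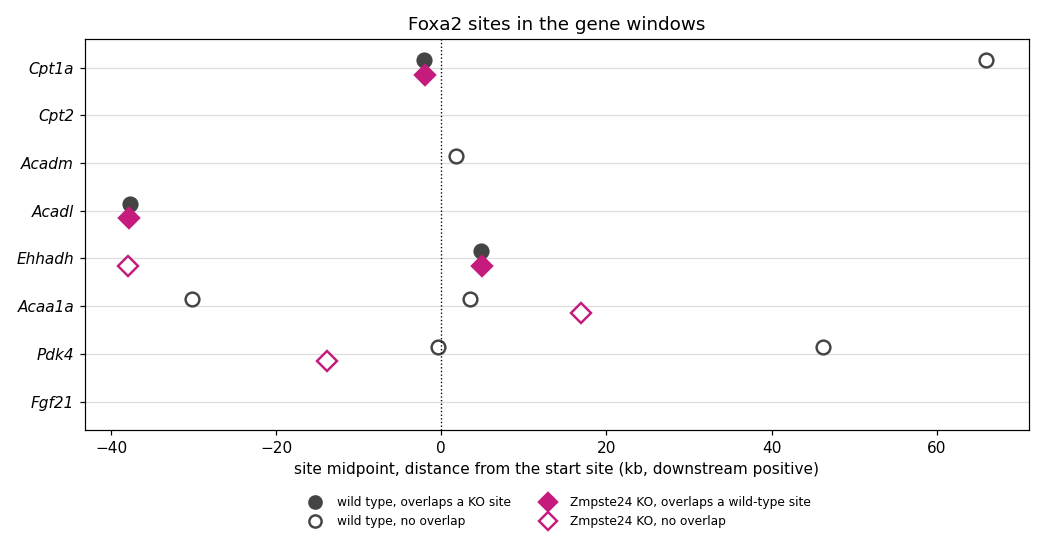
Foxa2 sites in the window of each gene, with the distance of the site midpoint from the start site in kb on the x axis. Circles are WT and diamonds KO sites, filled where sites of both genotypes overlap. Filled pairs stand at Cpt1a, Acadl and Ehhadh, and no symbol stands at Cpt2 and Fgf21.

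Some of the sites stood close to a start site and others far from it. The midpoint of a WT site lay within 5 kb of the start site for 5 of the 8 genes, Cpt1a, Acadm, Ehhadh, Acaa1a and Pdk4, against 5.52% of all genes. In KO livers this held for 2, Cpt1a and Ehhadh, against 5.57%. With a limit of 2 kb the numbers were 2 in WT (3.8% of all genes) and 1 in KO (3.04%), and with 10 kb they were 5 and 2 (8.14% and 8.97%). The median distance from the start to the nearest WT midpoint was 4.14 kb over the 8 genes and 150 kb over all genes, and in KO livers 27.4 and 103 kb. The limit of 5 kb was chosen with these values known, and the difference between genotypes was not tested.

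Sites count as shared where those of both genotypes overlap by at least 1 bp, so a like position follows from that rule. Upstream of Cpt1a the WT site from 3320079 to 3320482 lay entirely inside the KO site from 3319870 to 3320866, 2.05 kb from the start. In the intron of Ehhadh the sites, from 21782792 to 21783182 in WT and from 21782675 to 21783146 in KO, had 355 bp in common, 4.82 kb downstream of the start. The pair at Acadl, from 66900597 to 66901399 in WT and from 66900820 to 66901368 in KO, was intergenic and lay 37.7 kb upstream. It was the only Foxa2 site of these genes inside H3K9me3, and was so at both ages.

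Sites that were not shared overlap no site of the other genotype, again by that rule, and their positions are listed here. The start of Pdk4 had a WT site of 334 bp, from 5496486 to 5496819, whose midpoint was 0.343 kb upstream. The KO site of Pdk4, from 5509672 to 5510520, lay 13.8 kb upstream, and the nearest KO site was 12.9 kb from the WT site at the start. A further WT site of Pdk4, from 5449920 to 5450315, lay 46.2 kb downstream. At Acaa1a the WT site from 119342832 to 119343457 was in an intron, 3.47 kb from the GENCODE start, and 1.73 kb from the start of Myd88, the closest coding start. A further WT site lay 30.2 kb upstream, in introns of Oxsr1 and Slc22a14, and the KO site lay 16.9 kb downstream, 0.784 kb from the start of Xylb. Acadm had its WT site, from 153942503 to 153943248, in an intron 1.76 kb from the start, and the nearest KO site lay 164 kb from it. The other unshared sites were a WT site 65.9 kb downstream of the Cpt1a start, beside Tesmin, and a KO site 38 kb upstream of Ehhadh, at an untranslated exon of Map3k13. For 10 of the 15 sites the closest coding start site was that of the described gene, and for 5 it was that of a neighbour. Here each overlapping pair counts once per genotype, and all of the pairs are among the 10.

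Sites were set beside the lamin B1 and H3K9me3 lists, which come from other mice. The young lists are from mice close in age to the Foxa2 mice, and the old lists are from much older mice. Of the 9 WT sites, 5 had the midpoint in a young lamin B1 domain (35.5% of the WT list) and 6 in an old one (63.5%). Of the 6 KO sites, 4 did so at each age (28% and 49.2% of the KO list). The site in which the ages differed was that of Acadm, outside young and inside old lamin B1 domains. For H3K9me3 the number was 1 of 9 WT sites at each age (19.4% and 22.9% of the WT list) and 1 of 6 KO sites (21.6% and 22.4% of the KO list), the shared site at Acadl.

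Words were first counted on both strands in the central 300 bases of each site. TGTTTAC was present in 2 of 9 WT sites, those of the Ehhadh intron and the Pdk4 start (14% of the WT list), and in 1 of 6 KO sites, that of the Ehhadh intron (11.1% of the KO list). TGTTTGC was present in 1 WT site (9.42%) and 1 KO site (8.16%), and the GATA word AGATAA in 1 WT site (17.4%) and 2 KO sites (20%). No central window held a DR-1 match in either genotype, against 5.89% of the WT and 5.3% of the KO list.

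The search of whole sites, added after those counts were seen, found more. TGTTTAC was then present in 3 WT sites (27.7% of the WT list) and 2 KO sites (23.4% of the KO list), and TGTTTGC in 2 (23.5%) and 3 (20.5%). AGATAA was found in 2 WT sites (41.7%) and 4 KO sites (46.4%). DR-1 matches were in 0 of 9 WT sites (17%) and in 2 of 6 KO sites (14.1%), among them that of Pdk4 shown above, and no match lies wholly inside a central window. Site widths ran from 334 to 1206 bp in WT and from 472 to 1118 bp in KO livers, and a wider site has more room for a word. Such a match describes letters and does not show that a factor sits there.

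All 8 genes have an entry among the RefSeq promoters of GRCm38.p6, each 300 bases around a start site. None held a forkhead core or a DR-1 match. Of 32851 promoters, 3.65% hold TGTTTAC and 5.07% hold TGTTTGC, while a DR-1 match occurs in 3.86%. The promoter of Pdk4 was the only one of the 8 with AGATAA, which 11.2% of promoters hold. The RefSeq starts lie within 32 bp of the GENCODE ones except for Cpt1a, 967 bp further downstream, and Acaa1a, 1618 bp further downstream. From the RefSeq start, 5 genes in WT and 2 in KO livers again had a midpoint within 5 kb.

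Over the 6 lists, the presence or absence of a region in the window gave each gene a pattern. Ehhadh and Acaa1a shared theirs (every list but young H3K9me3) with Mlycd and Slc27a5 of the pathway, and 2.66% of all genes had it. Cpt2 and Fgf21 shared a pattern of lamin B1 at both ages and old H3K9me3 without Foxa2, as did Acads, Acacb and 5.32% of all genes. The pattern of Cpt1a, lamin B1 at both ages and Foxa2 in both genotypes, was also that of Acaa2, Acox2, Scp2 and Slc25a20, among other genes of the pathway, and of 4.7% of all genes. No other gene of the pathway had the pattern of Acadm, Acadl or Pdk4, which 0.542%, 0.278% and 0.337% of all genes had.

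**Figure D4:**
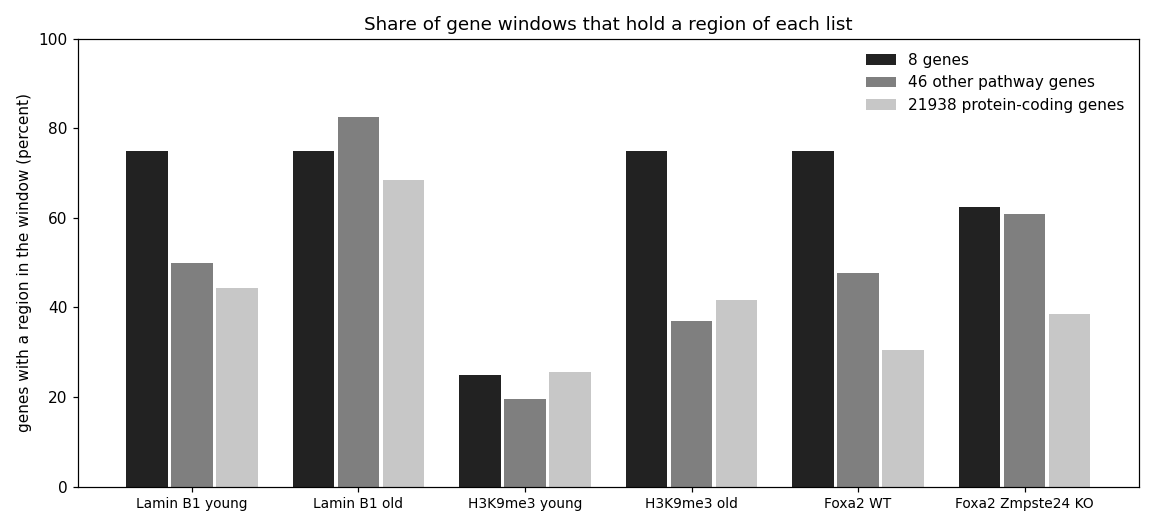
Percent of gene windows that hold at least 1 region of each list, for the 8 genes (black), the other 46 genes of the pathway (grey) and all 21938 protein-coding genes (light grey). For Foxa2 in WT livers the shares are 75%, 47.8% and 30.5%.

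The wider pathway was read from a list of 54 genes for uptake, activation, oxidation and ketogenesis, which includes the 8. Among the other 46, 23 had a young lamin B1 domain in the window (50%) and 38 an old one (82.6%). For H3K9me3 the numbers were 9 (19.6%) and 17 (37%), and for Foxa2 22 in WT (47.8%) and 28 in KO livers (60.9%). A Foxa2 site in KO alone was present for 11 of the 46 (23.9%) and for 0 of the 8 described genes, against 19.3% of all genes. Start sites inside an old and not a young domain numbered 15 of the 46 (32.6%), and inside a young and not an old domain 1, that of Etfa. The windows of Hadha and Hadhb, and those of Cyp4a10 and Cyp4a14, overlap, so these pairs are not separate observations. Expression was not measured, so as a check of tissue 8 genes of hepatocyte identity were read for Foxa2 sites. WT sites lay in the windows of 7 of these (Serpina1a had none), against 30.5% of all genes. KO sites lay in those of 6, Apoa1 and Serpina1a being without, against 38.5%. Their windows held lamin B1 domains for 3 genes in young and 4 in old livers (44.4% and 68.5% of all genes). H3K9me3 regions were held for 2 and 3 (25.6% and 41.6% of all genes).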

How the data were processed

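ChIP-Seq of lamin B1, H3K9me3 and Foxa2 in mouse liver was used as 6 deposited lists of regions, whose values are positions alone. The authors used BWA for alignment to mm10 and Picard against duplicates, kept unique reads, merged the lamin B1 and Foxa2 replicates, called lamin B1 domains with Epic in windows of 10 kb and called Foxa2 sites with PeakSeq against input. Whether H3K9me3 replicates were merged before calling is not given in the sources used here, and the H3K9me3 lists used here are shorter than the sets the study counts. Depth cannot be read from the lists, and neither can the loss of Zmpste24. Aligned reads are given by the study for each pooled condition. Starts were converted to count from 1, and all regions fit the chromosomes of GRCm38.p6 apart from 4 Foxa2 sites of the mitochondrial genome, left out of word searches. Genes came from GENCODE vM21, and a start site is the 5′ end of the gene. A region counted when at least 1 bp lay in the window. Most counts at the main settings were set beside the same count over all protein-coding genes or all sites, and no test was run. Counts under other flanks, overlap rules, cover limits or region widths have no such background. The genes and lists were chosen with earlier results of these data known. The genes named are the 8, the ketogenesis genes, the 12 other pathway genes with a start closest to a Foxa2 site, pathway genes with the same pattern as one of the 8, and genes that host or lie beside a printed site. Some items that this rule selects are not reported here. Python 3.11.15 and matplotlib 3.10.9 were used. Sites were searched for words in the central 300 bases and, added after seeing those counts, over the whole site. The overlap code was tested on 300 simulated cases with 0 mismatches. Other flanks, overlap rules and region widths were tried as alternatives.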

Additional observations from a re-analysis of the deposited data

How the results depend on the processing

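Of 86 alternatives computed, 46 left a value the same or a count within 1.5 times, and 40 moved it. Lamin B1 counts over the 8 genes stayed within 1.5 times under all alternatives run. The young count was 5 in place of 6 with the gene body alone, with 10 kb and with at least 50% of the window covered. The old count stayed at 6. With the gene body alone, with 10 kb or with at least 50% of the window covered, genes with H3K9me3 numbered 1, 1 and 0 in young and 1, 2 and 0 in old livers. In the same order of gene body, 10 kb and 100 kb, the median lamin B1 cover was 83.6%, 79.9% and 54.8% in young and 100%, 100% and 84% in old livers, and old H3K9me3 cover was 0%, 0% and 38.9%. Foxa2 counts depended on the flank and on site width. In the gene body alone, 3 genes and 3 sites were left in WT and 1 gene and 1 site in KO livers, and with 10 kb 3 genes and 3 sites in KO. Sites at least as wide as the median of their list left 1 gene and 1 site in WT and 2 genes and 2 sites in KO livers. Of the 54 pathway genes, the gene body alone left 8 with old H3K9me3, 10 with WT and 12 with KO sites, 10 kb left 11, 13 and 19, and 100 kb gave 19 with young H3K9me3. The cause was not tested, other than that a shorter window holds fewer regions. The share of all genes was not computed for these other flanks, cover limits and site widths. These counts therefore cannot be set beside a background. The limits of 2 and 10 kb, the RefSeq starts and the search of whole sites were chosen after seeing the data, and the DR-1 matches (2 KO sites, against 0 in the central 300 bases) rest on the last of these. No paired analysis was possible because each condition had 1 list without separate replicates, and for the same reason no replicate could be left out. The lists used here carry no score, so no stricter threshold could be set.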

Other observations

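Genes that make and export ketone bodies differed among themselves. Bdh1, which reduces acetoacetate, had a lamin B1 cover of its window of 0% in young and 100% in old livers, with 87% of the window in H3K9me3 at both ages. Acat1, which joins acetyl-CoA units, differed in the other direction, with 100% in young and 54.2% in old livers, and its only Foxa2 site was a WT site 8.63 kb from the start. Slc16a1, a transporter that exports ketone bodies, was covered to 100% at both ages and had 3 KO sites and no WT site in its window, the nearest 3.52 kb from the start.

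Among other genes of the pathway, the start closest to a Foxa2 site was that of Acox2, a peroxisomal oxidase of bile acid side chains, with a KO midpoint at 0.1 kb and the nearest WT midpoint at 27.3 kb. KO midpoints were nearer than WT ones also at Acsl1 (2.15 against 24.9 kb), Etfa (2.33 against 74.8 kb), Hadh (3.1 against 11.2 kb), Cyp4a10 (3.88 against 659 kb), Acsl3 (9.88 against 576 kb), Eci2 (9.92 against 283 kb) and Scp2 (7.73 against 8.7 kb). WT midpoints were the nearer ones at Acad11 (nearest KO midpoint at 27.9 kb), Cd36 (7.38 against 29.7 kb) and Hadha (11.1 against 208 kb). At Slc27a5 the midpoints were at 2.11 kb in WT and 2.33 kb in KO livers. There the sites, 0.405 and 0.694 kb wide, begin 1.91 and 1.98 kb from the start within the gene body, so they overlap. Lamin B1 cover at Etfa, which encodes a subunit of the electron transfer flavoprotein, was 100% in young and 55.6% in old livers, and H3K9me3 cover 38% and 0%. Eci2 had 0% lamin B1 cover in young and 65% in old livers, beside 55.1% and 0% for H3K9me3. Over the 54 pathway genes, a WT midpoint lay within 5 kb of the start for 7 (13%), against 5.52% of all genes. A KO midpoint did so for 9 (16.7%), against 5.57%. The 54 include the 8 described genes, which supply 5 of these WT cases and 2 of the KO cases. The genes named here with distances were picked as those with a start closest to a site of either genotype. The KO list is the longer one, with 8177 sites against 4960. Over all genes the median distance to the nearest midpoint was 103 kb in KO and 150 kb in WT livers. None of these differences was tested, and neither was the part of list length.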
